A study of Mus musculus with 16 samples.

Results

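The mouse stefin A cluster is a group of neighbouring genes on chromosome 16 that encode small inhibitors of cysteine proteases. The rows for *Stfa1*, *Stfa2*, *Stfa3*, *Stfa2l1*, *Cstdc4*, *Cstdc5* and *Cstdc6* were taken by gene symbol, which gave 7 of the 55359 genes in the count tables. These genes were chosen by their higher counts in ultraviolet B (UVB) than in no-UVB mice within each sex, so their changes against no-UVB skin are given as a description and without a test. The study compared how male and female skin respond to UVB. Whole dorsal skin was taken from wild-type C57Bl/6 mice (C57Bl/6N in the study's text) aged 8 weeks, with hair follicles at rest (telogen). UVB males and UVB females (4 mice each) had received 3 UVB exposures, 1 every second day, and the study's text places collection 6 h after the last exposure, on day 5. No-UVB males and no-UVB females (4 mice each) were of the same genotype and age, and no group carried a transgene. All cells of the skin were sequenced together, so a higher level may come from more cells of a type or from more RNA per cell, and the 2 cannot be told apart here.

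Stefins, or type 1 cystatins, are single-domain proteins without a signal peptide. They stay mainly in the cytosol and bind tightly and reversibly in the active site of papain-like proteases such as cathepsins B, L, H and S. In skin, stefin A is known as an abundant protein of the upper epidermis and a component of the cornified envelope, and in the mouse, stefin A genes are also known from neutrophils and their precursors. Humans carry a single stefin A gene, *CSTA*, whereas the mouse locus has been duplicated many times.

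The 7 genes lay between positions 35977176 and 36275884 of chromosome 16 (GRCm39), a stretch of 298.7 kb. *Stfa2l1* (35977176 to 35982332), *Cstdc4* (36004483 to 36008484) and *Stfa1* (36093823 to 36105817) were on the plus strand. *Cstdc6* (36142006 to 36154738), *Cstdc5* (36179743 to 36191595), *Stfa2* (36224305 to 36241288) and *Stfa3* (36270893 to 36275884) were on the minus strand. The 4 members on the minus strand had no other protein-coding gene between them, while *Csta3* and *Csta2* lay among the members of the plus strand. Each member had 3 exons in its reference transcript. The annotation placed 24 other genes within the stretch, of which 2 were protein coding (*Csta2* and *Csta3*), 12 were small nuclear RNA genes, 4 were long non-coding RNAs and the rest were pseudogenes.

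**Figure D1:**
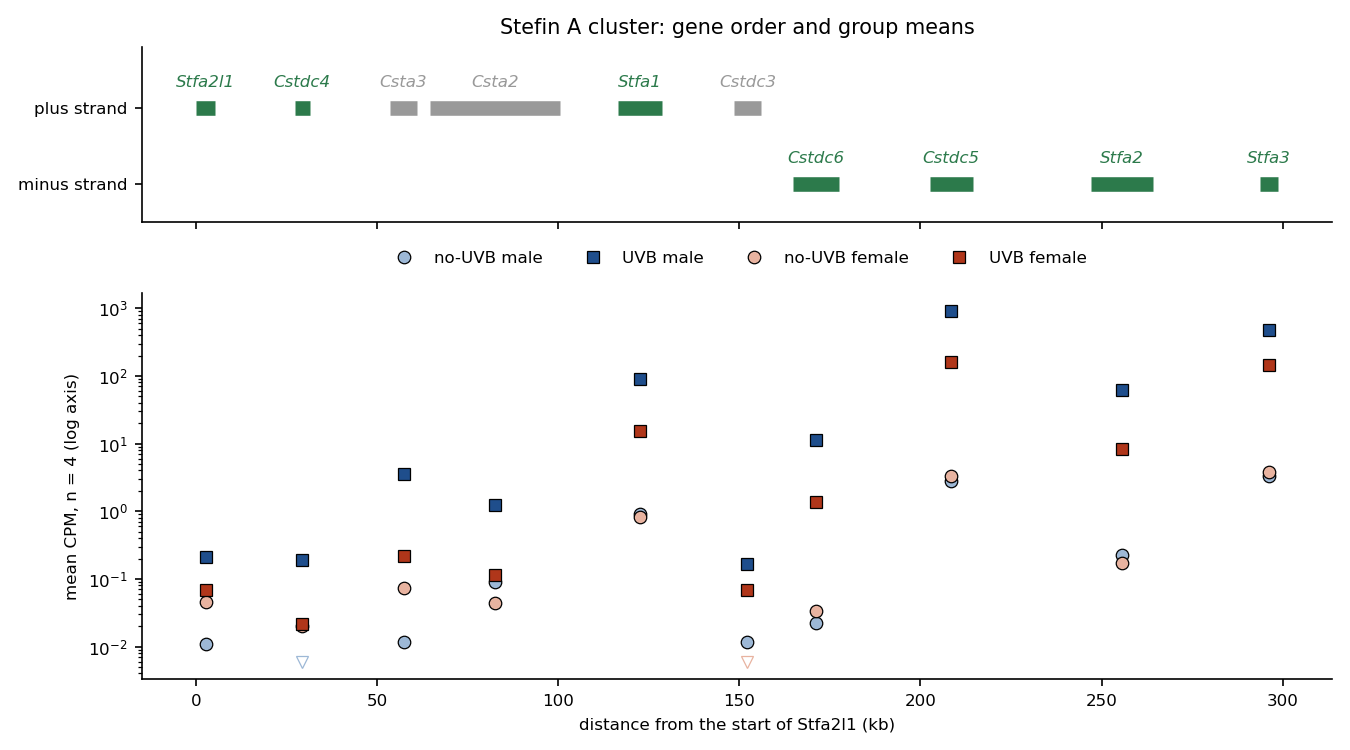
Gene order in the stefin A cluster (top; green, the 7 members; grey, other cystatin A genes and the pseudogene *Cstdc3*) and mean CPM of each gene in the 4 groups (bottom, log axis, n = 4 mice; an open triangle marks a mean of 0) against distance from the start of *Stfa2l1* in kb. *Cstdc5* and *Stfa3*, on the minus strand, had the highest means after UVB, and *Stfa2l1* and *Cstdc4*, at the plus-strand end, had means of 0.214 and 0.189 CPM in UVB males.

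The coding sequences showed which members can be told apart by reads. *Stfa2* and *Stfa2l1* were identical at 301 of 312 aligned positions (96.5%), and *Cstdc5* and *Cstdc6* at 283 of 295 (95.9%). *Stfa1*, whose reference transcript has the longest coding sequence (444 bases against 291 to 312 in the others), carried a stretch of 150 bases that *Cstdc5* lacks, and outside it was identical to *Cstdc5* at 288 of 294 positions (98%). *Stfa2* and *Stfa3* were identical at 81.1% and *Cstdc5* and *Stfa3* at 80.2%. The last 90 coding bases, up to and including the stop codon, are given for each member from the GRCm39 genome. Capitals mark the bases that differ from *Stfa3*, at the same place counted from the stop codon.
Stfa3: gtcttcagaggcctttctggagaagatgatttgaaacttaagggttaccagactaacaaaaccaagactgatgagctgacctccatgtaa
Stfa2: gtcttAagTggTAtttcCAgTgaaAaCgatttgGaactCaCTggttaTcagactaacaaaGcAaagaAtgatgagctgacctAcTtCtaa
Stfa2l1: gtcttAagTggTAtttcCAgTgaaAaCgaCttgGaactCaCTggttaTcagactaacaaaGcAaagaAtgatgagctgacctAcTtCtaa
Cstdc5: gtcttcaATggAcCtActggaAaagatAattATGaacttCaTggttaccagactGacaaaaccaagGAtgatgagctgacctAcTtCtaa
Cstdc6: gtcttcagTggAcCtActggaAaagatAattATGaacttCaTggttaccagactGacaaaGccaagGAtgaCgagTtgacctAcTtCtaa
Stfa1: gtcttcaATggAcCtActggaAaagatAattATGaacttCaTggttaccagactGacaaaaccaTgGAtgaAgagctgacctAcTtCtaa
Cstdc4: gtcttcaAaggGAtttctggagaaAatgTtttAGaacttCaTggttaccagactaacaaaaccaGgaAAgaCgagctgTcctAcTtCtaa
In these lines *Stfa2* and *Stfa2l1* differed at 1 of the 90 bases, *Cstdc5* and *Stfa1* at 2, *Cstdc5* and *Cstdc6* at 4, and *Stfa1* and *Cstdc6* at 5.

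Reads from such pairs can be misassigned or left out. The counting recorded 0 reads that fit several places in every library, so their number is not known. If such reads were left out, members with shared stretches would read too low against *Stfa3*. The study's methods name a sequencing kit of 100 bases. Of all stretches of 100 bases in the reference transcript of *Cstdc6*, 13.5% occurred unchanged in *Cstdc5*, and 13.1% of those of *Cstdc5* occurred in *Cstdc6* or *Stfa1*. The share was 10.6% for *Cstdc4*, all with *Csta2*, and 0.4% for *Stfa1*. No stretch of that length in *Stfa2*, *Stfa2l1* or *Stfa3* occurred in another gene. For stretches of 50 bases the shares were higher, at 33.7% for *Cstdc6*, 33.6% for *Cstdc5*, 30.8% for *Cstdc4*, 24% for *Stfa2l1*, 17.5% for *Stfa1* and 14.6% for *Stfa2*, and it was 0 only for *Stfa3*. The counts of *Cstdc6*, of *Stfa2l1* and of *Cstdc4* are therefore uncertain, since each was far below a near-identical or partly identical relative, and few misplaced reads would change them.

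The start regions of the members were also alike. Promoter sequence was at hand for 6 of the 7 members, as 250 bases before the RefSeq start of each gene (GRCm38.p6). The 80 bases next to the start are printed because they carry the elements that these promoters share, with capitals for GAGGAGGAG and TTTAAA. The coordinates are those of GRCm38.p6 and cannot be set against the GRCm39 gene positions.
Stfa1, chr16:36277068-36277147, plus strand: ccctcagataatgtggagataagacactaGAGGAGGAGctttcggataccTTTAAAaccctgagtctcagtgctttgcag
Stfa2, chr16:36408364-36408443, minus strand: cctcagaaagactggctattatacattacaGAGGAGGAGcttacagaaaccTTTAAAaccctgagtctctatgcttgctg
Stfa3, chr16:36455393-36455472, minus strand: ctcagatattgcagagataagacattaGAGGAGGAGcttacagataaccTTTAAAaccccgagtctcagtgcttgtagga
Stfa2l1, chr16:36156731-36156810, plus strand: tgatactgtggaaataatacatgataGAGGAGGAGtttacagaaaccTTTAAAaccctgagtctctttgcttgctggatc
Cstdc4, chr16:36184132-36184211, plus strand: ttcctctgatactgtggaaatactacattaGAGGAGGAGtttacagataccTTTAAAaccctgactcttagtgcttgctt
Cstdc5, chr16:36367571-36367650, minus strand: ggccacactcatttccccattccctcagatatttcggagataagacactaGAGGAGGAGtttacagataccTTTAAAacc
All 6 promoters held TTTAAA, which was found in 12.1% of 32851 promoters of the same length. All 6 also held GAGGAGGAG, found in 2.75% of them. This second motif was picked after the 6 sequences were read. TTTAAA began 29 to 33 bases before the start in 5 members and 9 bases before it in *Cstdc5*, and in each promoter GAGGAGGAG lay on its upstream side at about the same spacing. The TATA motif TATAAA was in 0 of the 6 (12.4% of all), and the AP-1 motif TGANTCA was in 0 of the 6 (6.75% of all). The STAT motif TTCNNNGAA was in 1 of the 6, *Cstdc4* (7.02% of all), and the C/EBP motif TTNNGNAA was in 5 of the 6 (36.8% of all). Both strands were searched, N stands for any base, and a match is a description of the letters only.

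The 16 libraries held 16495776 to 33404831 reads on genes (median 21767339), which set the precision of the low values. Between 70.08 and 79.22% of the reads of a library fell on genes and 3.63 to 4.23% of stranded gene reads lay on the opposite strand. Levels are in CPM, the reads of a gene scaled to the size of its library, after trimmed mean of M-values (TMM) normalization. CPM is not corrected for gene length, so ranks, sums and shares in CPM also depend on length. Values per kb are named as such. Groups are given as mean ± SD (n = 4 mice). Nothing in the labels says how the mice were housed or processed in batches. A gene entered a test if it passed edgeR's filter, which needs about 0.459 CPM in at least 4 mice. Of the 7 members, 5 passed. *Stfa1*, *Stfa3* and *Cstdc5* were above this level in all 16 mice, and *Stfa2* and *Cstdc6* in the 8 UVB mice and in 0 of the 8 no-UVB mice. *Stfa2l1* and *Cstdc4* were above it in 0 of 16 mice and were not tested.

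Without UVB, the cluster was nearly silent in both sexes, and *Stfa3* and *Cstdc5* made up most of what was read. The members summed to 7.33 ± 1.55 CPM in no-UVB males and 8.22 ± 1.94 CPM in no-UVB females. *Stfa3* stood at 3.34 ± 0.879 CPM in no-UVB males and 3.85 ± 1.47 in no-UVB females, and *Cstdc5* at 2.81 ± 0.521 and 3.27 ± 0.489. *Stfa1* followed at 0.918 ± 0.401 CPM and 0.832 ± 0.354. *Stfa2* had 0 to 8 reads per no-UVB mouse and *Cstdc6* 0 to 2. In these groups each of these 5 members overlapped between males and females.

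In male skin the summed level of the cluster went from 7.33 CPM without UVB to 1561 ± 660 CPM after it, a ratio of means of 213. The 4 UVB males stood at 1441, 2522, 1230 and 1051 CPM, so that the lowest was 111 times the highest no-UVB male. The cluster took 0.103 to 0.24% of the reads on genes in UVB males. *Cstdc5*, a stefin A-like gene, gave the highest CPM. It was at 2.79, 2.39, 2.51 and 3.55 CPM in the no-UVB males and at 810, 1548, 707 and 588 CPM in the UVB males. No value of one group came near the other, and UVB male 2 was the highest of its group. The fitted log2 fold change of *Cstdc5* was 8.38 ± 0.43 (SE).

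*Stfa3*, the member with the second highest CPM, was at 3.12, 2.35, 3.42 and 4.47 CPM in the no-UVB males and at 490, 705, 396 and 347 CPM in the UVB males (log2 fold change 7.22 ± 0.32). The groups were far apart, and UVB male 2 was again the highest. *Stfa1* was at 0.559, 0.644, 1.04 and 1.43 CPM in the no-UVB males and at 70.0, 156, 64.2 and 70.2 CPM in the UVB males (log2 fold change 6.66 ± 0.48). Of these 4 UVB males, 3 were close together and UVB male 2 was well above them. *Stfa2* was at 0.233, 0.368, 0.303 and 0 CPM in the no-UVB males and at 59.0, 92.8, 54.0 and 39.4 CPM in the UVB males (log2 fold change 7.99 ± 0.47). Its no-UVB values rest on at most 8 reads, and its UVB values on 756 to 1896 reads. *Cstdc6* had 0 or 1 read in each no-UVB male and was at 12.0, 18.9, 8.18 and 6.41 CPM in the UVB males. Set against a floor of 3 reads per library (at most 0.172 CPM), its mean was at least 66.2-fold higher.

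In female skin the fold changes of the same genes were smaller. The cluster summed to 297, 652, 271 and 100.4 CPM in the UVB females, a mean of 330 ± 232 CPM and 40.2 times the no-UVB mean. The lowest UVB female was 9.54 times the highest no-UVB female. *Cstdc5* was at 2.77, 3.01, 3.40 and 3.89 CPM in the no-UVB females and at 156, 300, 140 and 52.8 CPM in the UVB females (log2 fold change 5.65 ± 0.51). *Stfa3* was at 2.47, 4.63, 5.53 and 2.78 CPM in the no-UVB females and at 121, 309, 107 and 33.7 CPM in the UVB females (log2 fold change 5.19 ± 0.68). UVB and no-UVB females did not overlap for either gene, but UVB females differed widely among themselves, with mouse 2 the highest and mouse 4 the lowest for each of the 5 tested members.

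*Stfa1* was at 0.519, 0.713, 1.34 and 0.757 CPM in the no-UVB females and at 12.2, 23.0, 16.8 and 9.75 CPM in the UVB females (log2 fold change 4.18 ± 0.35). This was the narrowest spread among UVB females of the 3 most abundant members. *Stfa2* was at 0.173, 0.238, 0.164 and 0.101 CPM in the no-UVB females and at 6.38, 17.9, 5.52 and 3.30 CPM in the UVB females (log2 fold change 5.57 ± 0.67). *Cstdc6* had 0 to 2 reads in each no-UVB female and was at 1.34, 1.95, 1.33 and 0.836 CPM in the UVB females, a mean at least 8.99-fold above the floor of 3 reads (at most 0.151 CPM). Without UVB female 2 the log2 fold change fell to 4.48 for *Stfa3* and to 4.84 for *Stfa2*.

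The rule that chose the genes used these comparisons, so nothing is read from the number that passed. For reference, 5 of the 7 members were past the thresholds of an adjusted p under 0.1 and a log2 fold change over 1 in males, where 4.08% of 16535 tested genes were higher, and 5 of the 7 in females, where 1.63% of 16883 were higher (edgeR's quasi-likelihood test).

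**Figure D2:**
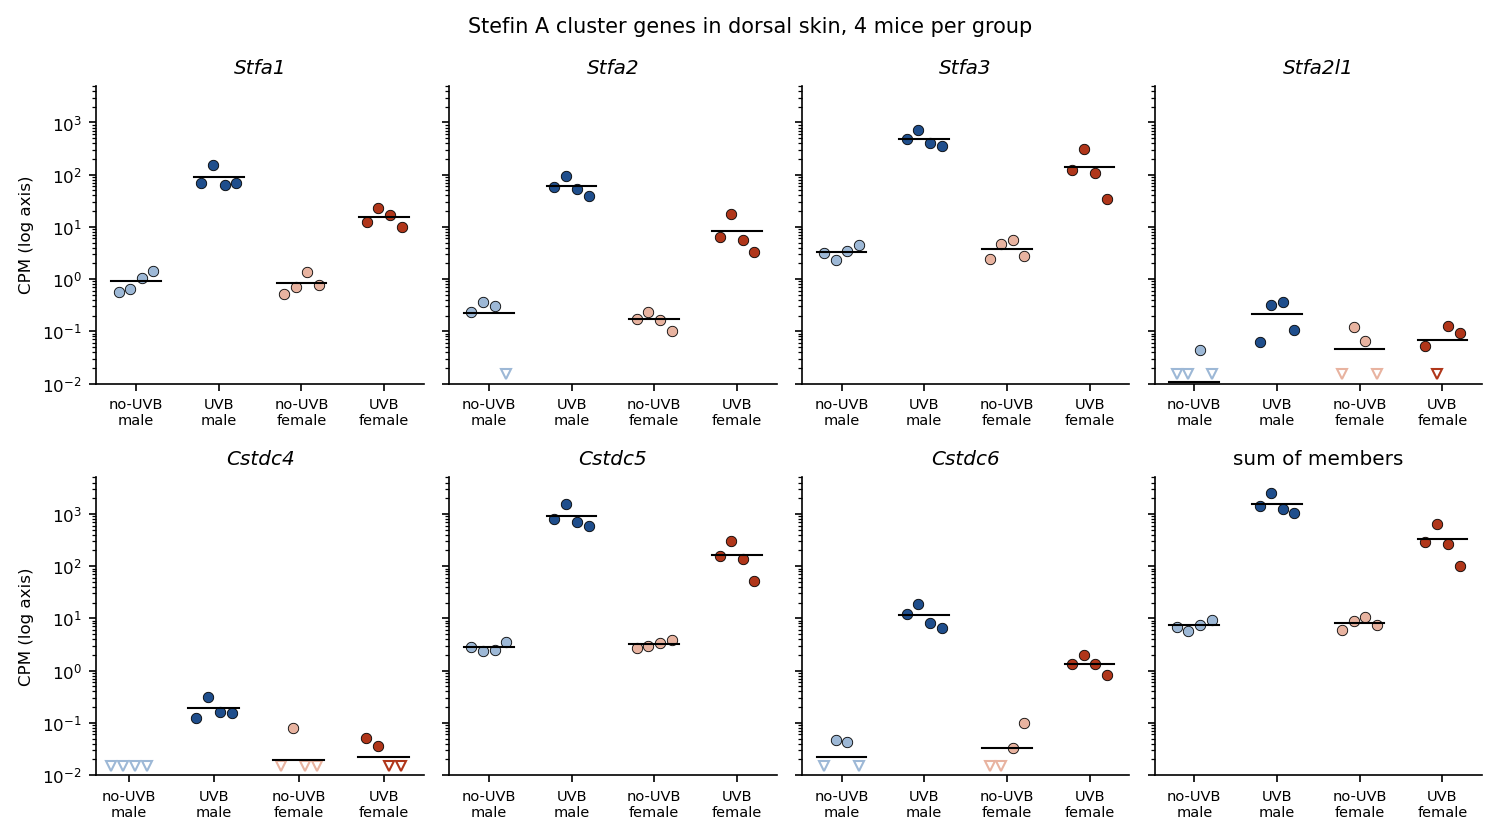
CPM of each stefin A cluster gene and of their sum (log axis) in the 4 mice of each group; points are mice, bars are group means and open triangles mark mice with 0 reads, drawn at a fixed height. For *Stfa1*, *Stfa2*, *Stfa3*, *Cstdc5* and *Cstdc6* the 4 UVB males sit above the 4 UVB females, which sit above all 8 no-UVB mice.

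*Stfa2l1* and *Cstdc4*, at the other end of the cluster, stayed close to or under the detection floor. *Stfa2l1* had 0, 0, 1 and 0 reads in the no-UVB males and 2, 5, 7 and 2 in the UVB males, with 0, 3, 2 and 0 reads in the no-UVB females and 1, 0, 3 and 2 in the UVB females. *Cstdc4* had 0 reads in each no-UVB male and 4, 5, 3 and 3 in the UVB males, with 0, 2, 0 and 0 in the no-UVB females and 1, 1, 0 and 0 in the UVB females. In females both groups were at or under 3 reads for both genes, and no fold is given. *Stfa2l1*, whose coding sequence is 96.5% identical to that of *Stfa2*, thus had a mean of 0.214 CPM in UVB males where *Stfa2* had 61.3 CPM.

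Per length, the levels in UVB males ran over several orders. *Cstdc5* had a mean of 1473 CPM per kb of reference transcript and *Stfa3* 884, followed by *Stfa2* at 118 and *Stfa1* at 106, and then by *Cstdc6* at 29.4. *Stfa2l1* and *Cstdc4* were at 0.499 and 0.367 CPM per kb. The ranges per kb of *Cstdc5* and *Stfa3* overlapped between mice, but within each of the 4 UVB males *Cstdc5* was the higher, by 1.46 to 1.94 times. *Stfa2* and *Stfa1* also overlapped, with *Stfa2* the higher in 2 of the 4 mice, as did *Stfa2l1* and *Cstdc4*, with *Stfa2l1* the higher in 2, so with this length the members of these last 2 pairs did not differ beyond their spread. The order depends on the length taken. With all annotated exons of a gene as its length, *Cstdc5* (743 CPM per kb) and *Stfa3* (774) changed places at the means, with *Cstdc5* the higher in 1 of the 4 UVB males. *Stfa1* (80.5) was then above *Stfa2* (60.6) in each of the 4, and *Stfa2l1* above *Cstdc4* in each of the 4. In UVB females, *Cstdc5* and *Stfa3* were at 262 and 260 CPM per kb of reference transcript, but at 132 and 228 CPM per kb of all exons, where *Stfa3* was the higher in each of the 4 mice. *Stfa1* and *Stfa2* were at 18.2 and 15.9 CPM per kb of reference transcript, and by all exons *Stfa1* was the higher in each UVB female.

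The make-up of the summed cluster, in CPM without regard to gene length, differed between the groups. *Cstdc5* held 34.1 to 41.7% of the sum in no-UVB males, 32.3 to 51.0% in no-UVB females, 46.0 to 52.6% in UVB females and 56.0 to 61.4% in UVB males. *Stfa3* moved the opposite way, from 40.5 to 47.3% in no-UVB males to 28 to 34% in UVB males, and was at 33.5 to 47.4% in UVB females. The ratio of *Cstdc5* to *Stfa3* CPM was 0.734 to 1.02 in no-UVB males and 1.65 to 2.19 in UVB males, with 0.615 to 1.40 in no-UVB females and 0.971 to 1.57 in UVB females. The ranges of males before and after UVB were apart, and those of females overlapped. *Stfa1* gave 8.33 to 15.2% of the sum in no-UVB males and 4.86 to 6.68% in UVB males, and *Stfa2* never exceeded 6.35%. These shares were examined after the values had been seen and carry no test.

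**Figure D3:**
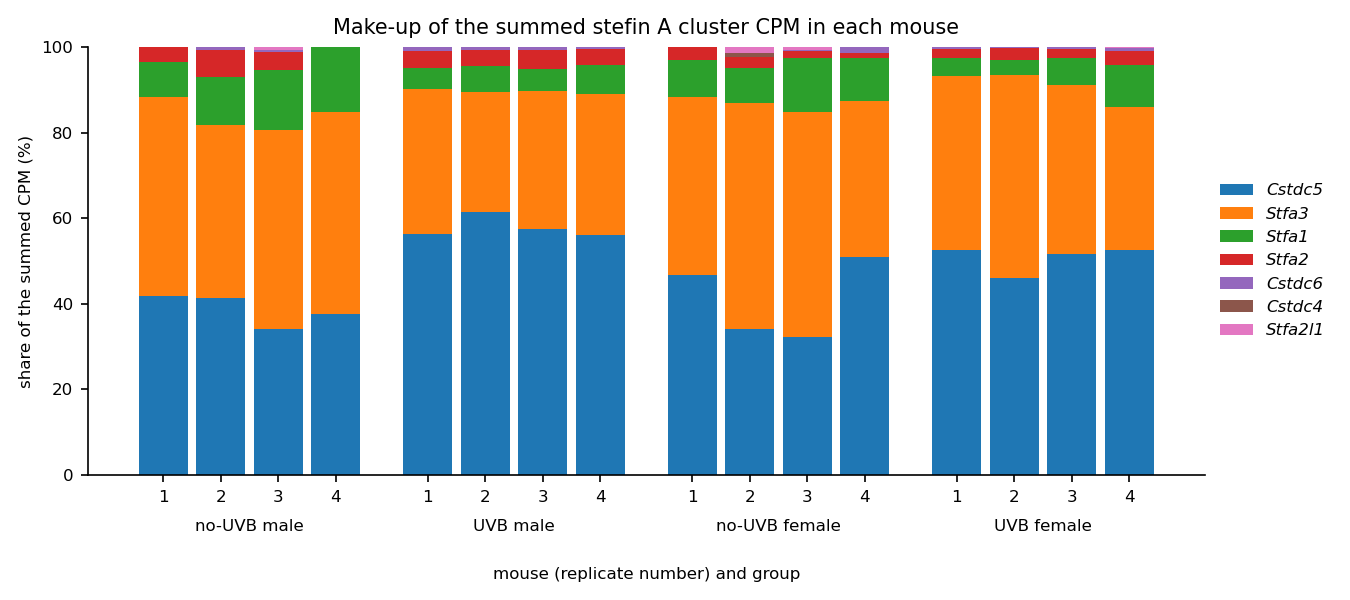
Share of each member in the summed stefin A cluster CPM (%, stacked to 100) for each of the 16 mice, by group. *Cstdc5* (blue) takes 56.0 to 61.4% in UVB males, above its share in every other mouse, and *Stfa3* (orange) takes 28 to 34% there.

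*Cstdc5* overlaps *Gm15845*, a long non-coding RNA on the opposite strand, and its level depends on how strand is treated. Counted without regard to strand, *Cstdc5* kept 53.7 to 64.4% of its stranded count in UVB males and 50.1 to 63.4% in UVB females, as reads in the overlap then count for neither gene. *Gm15845* itself had 0 reads in all 8 no-UVB mice, 4 to 18 in the UVB males and 0 to 11 in the UVB females. The log2 fold change of *Cstdc5* in males was 8.14 without strand and 8.38 with it.

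The difference between irradiated males and females was not part of the rule that chose the genes, and it was tested over all 16 mice. The rule took genes that rise after UVB, with earlier results of these data known. The shares over all genes given here need not hold for genes picked that way. After UVB, the 5 tested members were higher in males than in females at an adjusted p under 0.1 (edgeR's quasi-likelihood test, Benjamini-Hochberg over all genes), where 12.8% of 17406 genes were. Each of these 5 had passed the filter in all UVB males and all UVB females, and for each the 4 UVB males lay above the 4 UVB females, as they did for 11.5% of the 17406 genes. *Cstdc6* had the largest log2 difference, 3.03 ± 0.33 (SE; adjusted p = 5.4e-05), with means of 11.4 and 1.36 CPM. *Stfa2* was higher by 2.86 ± 0.41 (adjusted p = 0.00065), with means of 61.3 ± 22.6 CPM in UVB males and 8.28 ± 6.57 in UVB females. *Stfa1* was higher by 2.53 ± 0.32 (adjusted p = 0.000271), with means of 90.2 ± 44.2 and 15.4 ± 5.84 CPM.

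*Cstdc5* was higher in UVB males by 2.49 ± 0.40 on the log2 scale (adjusted p = 0.00151), with means of 913 ± 433 and 162 ± 102 CPM. *Stfa3* had the smallest difference, 1.76 ± 0.47 (adjusted p = 0.0214), with means of 484 ± 159 and 143 ± 117 CPM. For *Stfa3* the lowest UVB male, at 347 CPM, was little above the highest UVB female, at 309 CPM. All 5 calls held with each mouse left out in turn. Without UVB female 2 the difference was 2.47 for *Stfa3* and 3.60 for *Stfa2*. In the same contrast, where 12.8% of all genes were higher in males, 8 of 10 stressed epidermis markers, 9 of 10 epidermal keratinocyte markers, 7 of 11 cornified envelope genes and 6 of 11 neutrophil markers were higher in UVB males (without *Defb3* and *Mmp8*, which no UVB female held above the filter level). Of 10 monocyte and macrophage markers 0 were higher, of 7 other cystatins 1 (without *Csta2* and *Csta3*), and of 10 cathepsins 2. In males 1 gene each was lower among the neutrophil markers, cornified envelope genes, monocyte and macrophage markers, other cystatins and cathepsins. *Krt6b* (3.33 ± 0.37), *Krt16* (2.94 ± 0.35) and *S100a8* (3.40 ± 0.51) had log2 differences as large as those of the members, and their part in the sex difference of the cluster was not tested. As sums, the cluster was 4.73 times as high in UVB males as in UVB females, and 0.892 times as high in no-UVB males as in no-UVB females.

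Without UVB, only *Stfa1*, *Stfa3* and *Cstdc5* had enough reads for a test, and 0 of these 3 passed between the sexes by edgeR's quasi-likelihood test, where 11.8% of genes did in either direction. At an unadjusted p under 0.05 the number was 0, and it was 0 by DESeq2's Wald test. The fitted log2 differences, male against female, were 0.06 ± 0.63 for *Stfa1*, -0.25 ± 0.66 for *Stfa3* and -0.22 ± 0.57 for *Cstdc5*. With errors of this size, from the fit over all 16 mice, a modest difference was not detectable.

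Whether the response itself differed between the sexes was tested by the interaction of sex and UVB. The response was larger in males by 2.72 ± 0.69 on the log2 scale for *Cstdc5* (adjusted p = 0.049) and by 2.47 ± 0.71 for *Stfa1* (adjusted p = 0.0735), so 2 of the 3 members with enough reads in every group passed, against 2.75% of 17406 genes with a larger response in males. *Stfa3* (2.01 ± 0.80, adjusted p = 0.172) did not pass. *Stfa2* and *Cstdc6* entered the fit only through the UVB mice, and no interaction is given for them.

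These 2 calls were sensitive. The *Cstdc5* call was lost without no-UVB male 2 (adjusted p = 0.109), and the *Stfa1* call was lost on leaving out any 1 of 6 mice, namely no-UVB male 1, no-UVB male 2, UVB male 1, no-UVB female 2, no-UVB female 3 or UVB female 1 (adjusted p = 0.102 to 0.206). *Stfa3* passed without UVB female 2 (2.72, adjusted p = 0.0485). By DESeq2's Wald test 3 of these 3 passed, and with every gene of at least 1 read in the fit 0 did.

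**Figure D4:**
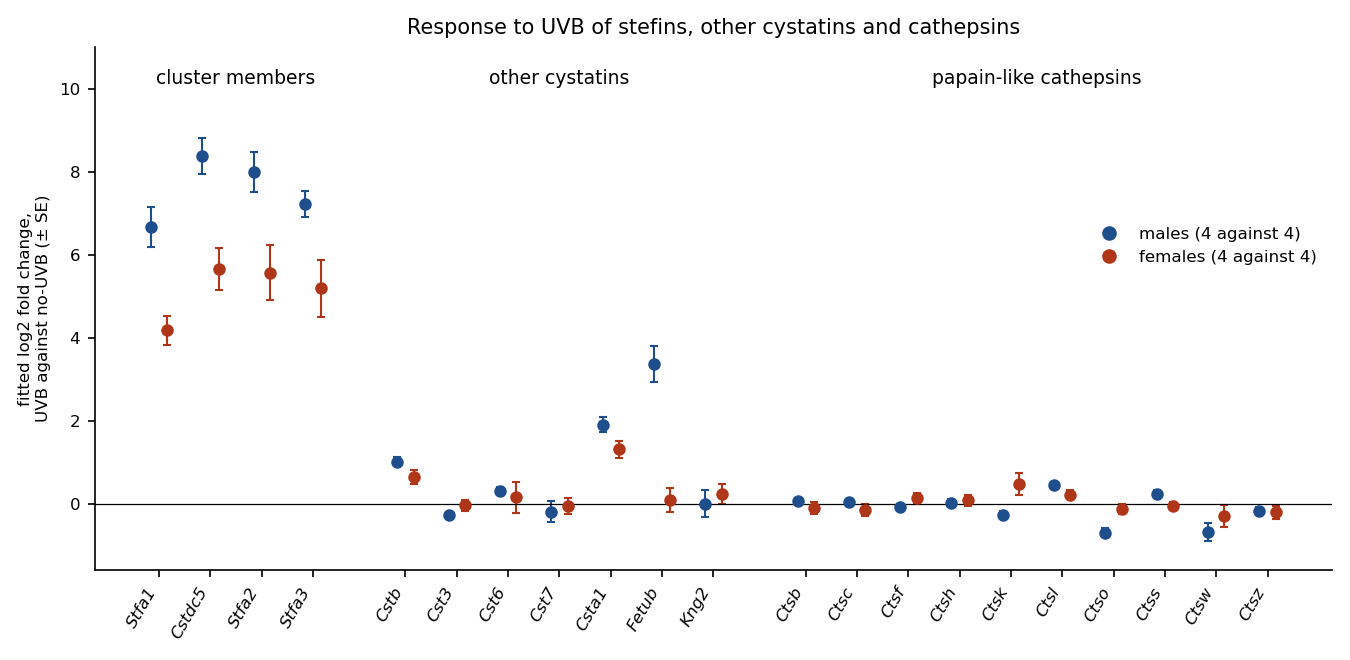
Fitted log2 fold change after UVB (points, bars are ± SE) in males and females for 4 stefin A cluster genes, the other cystatins and the papain-like cathepsins. These members range from 6.66 to 8.38 in males and from 4.18 to 5.65 in females, and no cathepsin is past 1 in either sex. *Cstdc6*, *Csta2* and *Csta3* had at most 3 reads in every no-UVB mouse and are not drawn.

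The other cystatins were followed as the nearest relatives of the cluster. Of 21 in the files, 9 were tested in males, but *Csta2* and *Csta3* passed the filter only through the UVB males and are given by their reads. Of the other 7, 3 rose in males (*Csta1*, *Cstb* and *Fetub*) and 0 fell, where 4.08% of all tested genes were higher, with a median log2 fold change of 0.32 against -0.02 for all genes. In females 7 were tested, and 1 rose and 0 fell, where 1.63% of genes were higher, with a median of 0.16 against 0.00. *Csta3*, between *Cstdc4* and *Stfa1*, had 0 or 1 read in no-UVB males and 36 to 97 in UVB males, where its mean of 3.50 CPM was at least 20.4-fold above the floor. In UVB females it had 1 to 9 reads. *Csta2* had 0 to 3 reads in no-UVB males and 13 to 40 in UVB males, at least 7.24-fold above the floor. Part of its transcript is identical to *Cstdc4*.

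*Csta1*, just outside the first member, was already well expressed and rose less. It went from 45.2 ± 9.94 to 167 ± 29.9 CPM in males (log2 fold change 1.91 ± 0.18, adjusted p = 4.49e-05) and from 49.6 ± 3.77 to 123 ± 39.5 CPM in females (1.32 ± 0.21, adjusted p = 0.00318). Without UVB, *Csta1* was thus above the summed level of the 7 members, and after UVB it was below it in males and, at the means, in females. *Cstb*, stefin B, a widely expressed inhibitor, went from 80.9 ± 10.8 to 161 ± 16.5 CPM in males (1.02 ± 0.10, adjusted p = 1.69e-05), and in females its change of 0.65 ± 0.17 was under the fold threshold (adjusted p = 0.0273).

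*Fetub*, the secreted cystatin-family protein fetuin B, went from 0.452 ± 0.077 to 4.68 ± 2.38 CPM in males (3.36 ± 0.44, adjusted p = 0.000143). In females it was at 0.504 ± 0.094 and 0.521 ± 0.156 CPM (0.09 ± 0.29, adjusted p = 0.874). Its interaction was 3.26 ± 0.56 (adjusted p = 0.0114). *Cst6*, the secreted epidermal inhibitor cystatin M/E, was at 798 ± 47.8 and 982 ± 121 CPM in males (0.32 ± 0.10) and at 1077 ± 654 and 1200 ± 266 CPM in females (0.16 ± 0.37), short of the fold threshold in both. Among the 21 other genes between the members that the files list, *Csta2* and *Csta3* were the only 2 that passed the filter in males, and none did in females.

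The papain-like cathepsins, the proteases that stefins bind, changed by less than the fold threshold in both sexes. All 10 were tested in each sex, and by edgeR 0 passed both thresholds, with median log2 fold changes of -0.03 in males and -0.08 in females. DESeq2 also called 0 in each sex, and at an unadjusted p under 0.05 there were 5 in males, where 57.9% of all tested genes were, and 0 in females, where 30.3% were. At an adjusted p under 0.1 whatever the fold, 2 were higher and 4 lower in males, as 59.6% of genes were in either direction, and 0 in females. *Ctsl*, cathepsin L, was at 394 ± 34.8 and 531 ± 32.5 CPM in males (0.45 ± 0.08, adjusted p = 0.000539) and at 349 ± 24.6 and 404 ± 49.4 CPM in females (0.22 ± 0.11, adjusted p = 0.201). *Ctso*, cathepsin O, had the largest fitted change in males, from 52.8 ± 4.89 to 32.1 ± 5.0 CPM (-0.69 ± 0.11, adjusted p = 0.000285), and was at 42.2 ± 5.83 and 38.2 ± 5.09 CPM in females (-0.13 ± 0.12, adjusted p = 0.493). Its interaction of -0.58 ± 0.17 (adjusted p = 0.0752), the only 1 of the 10 to pass where 4.25% of genes had a lower response in males, was lost on leaving out any 1 of 10 mice (adjusted p = 0.101 to 0.158). *Ctsw*, cathepsin W of cytotoxic lymphocytes, was at 8.56 ± 1.53 and 5.19 ± 1.66 CPM in males (-0.68 ± 0.21, adjusted p = 0.0201). *Ctsb*, cathepsin B, was at 915 ± 84.9 and 936 ± 77.9 CPM in males (0.06 ± 0.09, adjusted p = 0.629). The 10 cathepsins summed to 2667 to 2995 CPM in UVB males and 2609 to 3158 CPM in no-UVB males, while the summed cluster went from at most 9.45 to at least 1051 CPM.

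The markers of the cells that can carry stefin A transcripts were read in the same mice. Neutrophil markers did not give one picture. Without *Mmp8* in males and *Clec4e* in females, which passed the filter only through UVB mice, 11 of 20 listed were tested in males, with 6 higher and 1 lower, and 9 in females, with 4 higher and 1 lower (median log2 fold changes 1.78 and 0.17). Over all tested genes, 4.08% were higher in males and 1.63% in females. *S100a9* and *S100a8*, whose products form calprotectin and which stressed keratinocytes also express, went from 1.72 to 39.8 CPM (4.55 ± 0.54, adjusted p = 0.000385) and from 2.09 ± 0.689 to 26.7 ± 21.9 CPM (3.67 ± 0.64, adjusted p = 0.00244) in males. UVB male 2 was the highest for both, and without it the UVB means were 26.4 CPM for *S100a9* and 15.7 CPM for *S100a8*, with log2 fold changes of 3.98 and 2.93. In females *S100a9* went from 1.70 to 8.25 CPM (2.29 ± 0.25, adjusted p = 0.00033), and *S100a8* was at 2.23 and 2.42 CPM. *Cxcr2*, a chemokine receptor, rose by 3.63 ± 0.20 in males and 2.80 ± 0.26 in females. *Clec4e*, a lectin receptor of myeloid cells, rose by 2.98 ± 0.37 in males (3.74 without no-UVB male 2). It is among the 6 higher, but its no-UVB male mean of 0.273 ± 0.223 CPM was under the filter level. Its pass in males thus rested mainly on the UVB males. In females *Clec4e* had 2 to 10 reads without UVB and 15 to 25 after it. Over all tested genes, 3.31% were lower in males and 1.08% in females, and *Mmp9*, gelatinase B, fell by 1.57 in males and fell by 1.06 in females.

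*Ly6g* and *Retnlg*, which mark neutrophils more narrowly, were low throughout. *Ly6g* had 0 reads in 15 of 16 mice and 1 read in the other, a no-UVB female. *Retnlg* was at 2.26 ± 1.13 and 1.48 ± 0.58 CPM in no-UVB and UVB males and at 2.08 ± 1.09 and 1.92 ± 0.35 CPM in females. By other methods the study did find neutrophils in irradiated skin. It reported them by staining and, at an earlier day, in larger share in males than in females by flow cytometry. Its single-cell data of male skin from day 5 also held relatively more neutrophils after UVB. The 20 neutrophil markers summed to 149 to 253 CPM in UVB males and 124 to 164 in no-UVB males, which overlapped. They summed to 100.5 to 111 CPM in UVB females and 97.7 to 149 in no-UVB females. A single gene, *Il1r2*, a decoy receptor of interleukin 1, made up 63.6 to 73% of this sum in no-UVB males, where it was at 105 ± 18.3 CPM against 59.9 ± 10.3 CPM in UVB males. Without *Il1r2* the sum was 43.9 to 47.1 CPM in no-UVB males and 86.7 to 202 CPM in UVB males, which did not overlap, and 37.5 to 52.3 and 45.1 to 52.4 CPM in females, which did. UVB male 2, the highest for the cluster, was the highest of the UVB males for the sum with and without *Il1r2*. UVB female 2, the highest of the UVB females for the cluster, was the lowest for the sum of all 20 and the highest without *Il1r2*. The part of neutrophils in the level of the cluster was not tested beyond these values.

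Epidermal genes were read in the same way, as counts without the genes that passed the filter only through UVB mice (*Serpinb3a* in both sexes, *Defb3* and *Sprr3* in males). Of 9 stressed epidermis markers tested in males 8 rose and 0 fell, where 4.08% of all tested genes were higher, and of 9 in females 7 rose and 0 fell, where 1.63% were (median log2 fold changes 5.71 and 3.36). *Krt6b*, a keratin of activated epidermis, went from 2.72 ± 1.10 to 1145 ± 401 CPM in males (8.72 ± 0.39, adjusted p = 1.62e-06) and from 3.96 ± 0.68 to 114 ± 56.6 CPM in females (4.85 ± 0.42, adjusted p = 0.000187). *Serpinb3a*, a serpin, had 0 to 6 reads in the no-UVB males and 183 to 570 in the UVB males, with 0 to 3 and 12 to 119 in females. *Sprr1b*, a cornified envelope precursor, rose by 7.03 ± 0.60 in males (7.77 without no-UVB male 3) and 5.57 ± 0.29 in females. Of 10 cornified envelope genes tested in males 6 rose, and of 10 in females 3 rose, with 0 lower in either sex (medians 1.21 and 0.64, against the same 4.08 and 1.63% of all genes). *Flg*, the gene of filaggrin, rose by 3.86 ± 0.21 in males and 2.88 ± 0.30 in females, and *Rptn*, repetin, by 3.63 ± 0.25 in males. *Ivl*, involucrin, rose by 2.14 ± 0.16 and 1.41 ± 0.14, and *Tgm3*, an epidermal transglutaminase, by 2.85 ± 0.16 and 1.62 ± 0.27. *Sprr3* had 0 to 2 reads in each no-UVB mouse and 21 to 86 in the UVB males.

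Of 10 epidermal keratinocyte markers 3 rose in males and 1 in females, with 0 lower (medians 0.56 and 0.10), where 4.08 and 1.63% of all genes were higher. *Krt1*, a keratin of the suprabasal layers, rose by 3.13 ± 0.29 and 1.99 ± 0.26, and *Krt14*, a keratin of the basal layer, by 1.43 ± 0.23 in males. *Krt10*, the partner of *Krt1*, rose by 1.24 ± 0.14 in males. *Krt5*, the partner of *Krt14*, was at 2837 ± 616 and 3409 ± 490 CPM in males and at 2432 ± 427 and 2067 ± 386 CPM in females. As a sum, the 10 markers were at 26285 to 36001 CPM in UVB males, above the 15805 to 20163 CPM of UVB females, and at 10255 to 17325 CPM over all no-UVB mice. This keratinocyte sum was thus higher in males after UVB, as the cluster was, and its part in the sex difference of the cluster was not tested. Of 10 monocyte and macrophage markers tested in each sex by edgeR, 0 passed both thresholds, 6 in males and 2 in females had an unadjusted p under 0.05 (57.9 and 30.3% of all tested genes), and DESeq2 called 0.

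The order of single mice differed between the lists. The summed cluster was highest in UVB female 2 (652 CPM) and lowest in UVB female 4 (100.4 CPM), whereas the 11 stressed epidermis markers summed to 1583 CPM in UVB female 2 and 2242 CPM in UVB female 4. *Krt17* and *Sprr1a*, with UVB female means of 662 and 559 CPM, weighed most in that sum. UVB female 2 was the highest for *Sprr2d*, *Sprr2h*, *Serpinb3a* and *Il36a*, and UVB female 3 or 4 for the other tested markers. The cornified envelope genes summed to 5894 CPM in UVB female 2 and 5077 CPM in UVB female 4. In UVB males, mouse 2 was the highest for both, with 2522 and 8207 CPM.

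**Figure D5:**
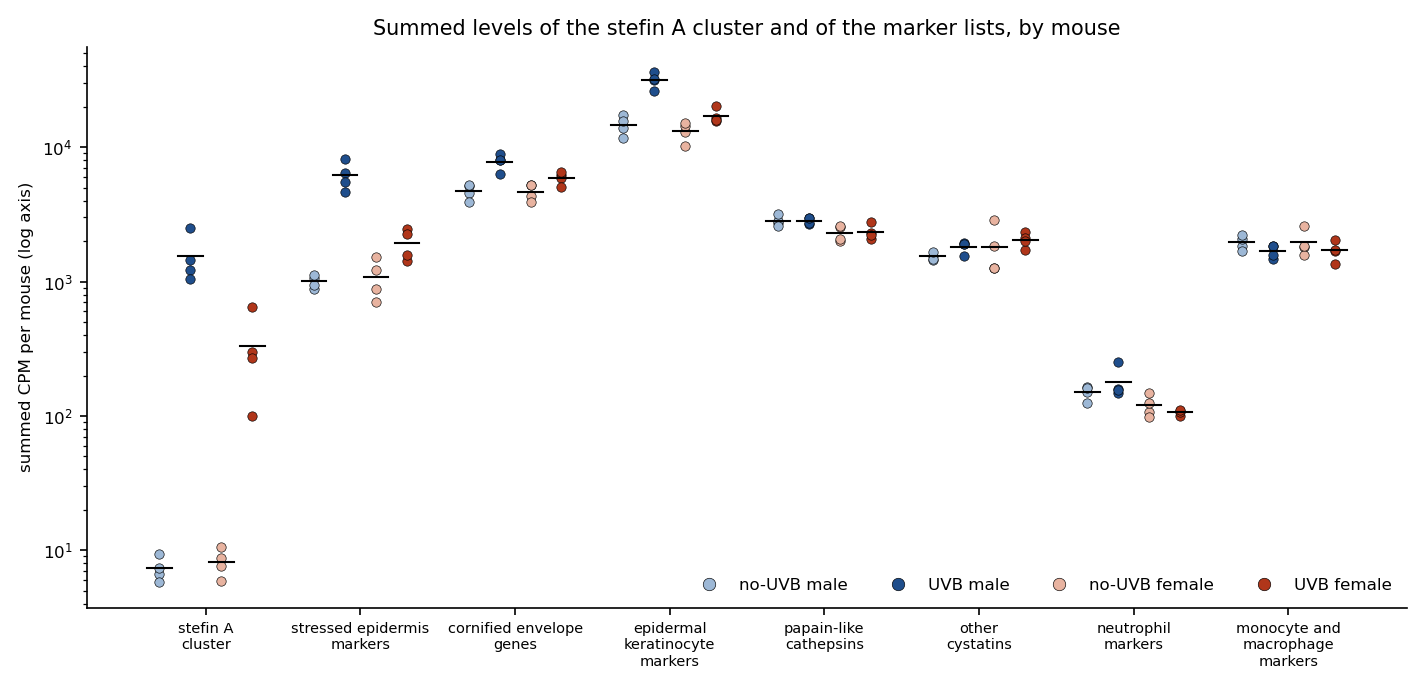
Summed CPM per mouse (log axis; points are mice, bars are group means) of the 7 stefin A cluster genes and of 7 gene lists, by group. The cluster goes from at most 10.5 CPM in any no-UVB mouse to at least 100.4 CPM in every UVB mouse, while the cathepsin, other cystatin and macrophage sums stay within 1265 to 3158 CPM in all 4 groups.

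Genes whose pattern over the 16 mice was most like that of the cluster were found by the root mean square (RMS) difference of centred log2 CPM, over 15137 other genes with a mean of at least 1 CPM. For the sum of the members the 5 nearest were *Spink7* (RMS difference 0.598), *Olah* (0.623), *Lce3d* (0.680), *Lce3e* (0.765) and *Tdh* (0.774). *Spink7*, a Kazal-type serine protease inhibitor, was at 0.073 and 44.4 CPM in no-UVB and UVB males and at 0.027 and 5.42 CPM in females. *Lce3d* and *Lce3e* belong to the late cornified envelope family, and *Lce3d* was at 0.569 and 68.0 CPM in males and at 0.361 and 13.3 CPM in females. *Olah*, a thioesterase of fatty acid synthesis, was at 0.089 and 14.7 CPM in males and at 0.060 and 2.99 CPM in females.

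For single members the nearest genes were largely the same. They were *Olah* and *Lce3d* for *Stfa1* (0.475 and 0.484), *Spink7* and *Lce3e* for *Stfa2* (0.724 and 0.822), and *Olah* and *Tdh* for *Stfa3* (0.511 and 0.691). For *Cstdc5* they were *Spink7* and *Krt6b* (0.584 and 0.813), and for *Cstdc6*, *Lce3b* and *Akr1d1* (0.542 and 0.558). The measure takes in the rise after UVB that chose the members, and it carries no test.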

How the data were processed

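RNA of whole dorsal skin was sequenced by the authors from 16 mice in 4 groups of 4, taken from the sample labels. The authors deposited whole-number STAR counts per Ensembl gene (GRCm39), without normalization and with the number of reads per strand; the STAR version is not given in the sources used here. Of the 3 counts per gene, the one for the strand that the directional library reports was used, with the unstranded one as an alternative. GENCODE M39 names 54749 of the 55359 identifiers, and 610 kept their identifier. Libraries were checked for duplicates (chi-square per degree of freedom between mice of a group 9.54 to 98.3 over 24 pairs). Labels do not say how mice were processed, so p-values measure the spread between these mice.

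Tests used edgeR 4.0.16 in R 4.3.3 (limma 3.58.1): filterByExpr, TMM, robust quasi-likelihood fit, Benjamini-Hochberg over all genes. Each sex was fitted on its own (8 mice) for UVB against no-UVB, called at an adjusted p under 0.1 and a log2 fold change past 1. The interaction and the sex differences were fitted over all 16 mice, called at an adjusted p under 0.1. The standard error is the absolute fold change divided by the root of F. A group with at most 3 reads in every mouse was at the floor, and counting error only is covered by it. The fits were also run on simulated data with the same spread for all genes, which does not cover genes as variable or as low as the members.

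The members and lists were chosen with earlier results of these data known. Genes named are all members; from each other list the 3 largest rises and 2 largest falls among those called in either sex; 10 defining markers (*Ly6g*, *Retnlg*, *S100a8*, *S100a9*, *Krt5*, *Krt14*, *Cstb*, *Cst6*, *Ctsl* and *Ctsb*); genes between the members; and the nearest patterns, with log2 CPM at a prior count of 2. *Gm15845*, *Ctso*, *Ctsw*, *Il1r2*, the sex difference of *Krt16* and the stressed epidermis markers named for the order of single mice were named after their values were seen. Of 97 listed symbols 93 were in the files. Alternatives were DESeq2 1.42.0 (size factors in the edgeR fit, and its Wald test), no filter beyond 1 count per gene, counts without strand, the replicate number as a block, and leaving out each mouse. Coding sequences were aligned with Biopython 1.88; promoters came from RefSeq (GRCm38.p6). Tables and plots used Python 3.11.15, pandas 2.3.3 and matplotlib 3.10.9.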

Additional observations from a re-analysis of the deposited data

Results flagged for a closer look

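Among 32 sets of 4 mice, 3 had 1 mouse set apart from the others by Dixon's test, which flags about 1 independent set in 20 by chance. The sets come from related genes in the same mice and are not independent. *Stfa1* in UVB male 2 was at 156 CPM, against 64.2 to 70.2 CPM in the other UVB males. The other 2 were at or under 3 reads: *Stfa2l1* in no-UVB male 3 (0.0433 CPM) and *Cstdc4* in no-UVB female 2 (0.0792 CPM). In both sets every other mouse had 0 reads, so that any read is flagged.

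The response to UVB was larger in males than in females by the interaction of sex and UVB (edgeR, adjusted p under 0.1) for *Cstdc5* (log2 difference 2.72) and *Stfa1* (2.47), and among the other cystatins for *Fetub* (3.26), which DESeq2 also called. *Csta3* was also past the threshold by edgeR but is set aside, as it passed the filter only through the UVB males.

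Reads on the strand opposite to a member entered only the alternative that counts without regard to strand. They averaged 46 for *Cstdc5*, 50 for *Stfa3* and 6.25 for *Stfa1* in UVB males, more than in any no-UVB male, where there was at most 1. This was 0.245%, 0.488% and 0.344% of the reads on the strand of the gene, below the 3.63 to 4.23% of all stranded gene reads that lay on the opposite strand.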

How the results depend on the processing

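After UVB, the higher level in males kept its call for the 5 tested members under every alternative that was run, with 5 members called in each of the 16 fits that left out 1 mouse and 5 or 6 otherwise. Adjusted p stayed at or under 0.0659. Without UVB, 0 members were called under any of them, though *Stfa2* and *Cstdc6* had too few reads there to be called. The interaction was less firm: 2 members were called, 5 by DESeq2's Wald test (with *Stfa2* and *Cstdc6*, which entered only through the UVB mice), 0 with every gene of at least 1 count, and 0 to 3 with 1 mouse left out. The cause was not tested. For the lists, 33 genes were called in males (31 to 34 with 1 mouse left out) and 19 in females (17 to 23). The summed log2 ratio of the cluster was 7.73 in males (7.40 to 7.88 with 1 mouse left out) and 5.33 in females (4.76 to 5.63).

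Male against female without UVB (-0.19 to 0.43 for *Stfa1* and -0.73 to 0.68 for *Cstdc6* with 1 mouse left out) changed sign, with no call, for *Stfa1* (0.06) without no-UVB male 3 (-0.02), no-UVB male 4 (-0.19), no-UVB female 1 (-0.11), no-UVB female 2 (-0.04) or no-UVB female 4 (-0.01), and for *Cstdc6* (-0.29) without no-UVB male 1 (0.06) or no-UVB female 4 (0.68), both at the floor.

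Mice of the same number in UVB and no-UVB groups did not deviate together (correlations -0.07 to 0.02 in males and -0.11 to 0.22 in females), so the number was not taken to pair them. With the replicate block, 3 members were called for the interaction (the added one, *Stfa2*, entered only through the UVB mice), 5 after UVB and 0 without UVB, and 33 and 18 list genes in males and females. The few reads of *Stfa2*, *Cstdc6*, *Stfa2l1* and *Cstdc4* in no-UVB mice limit what can be said of them there.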
